A study of Mus musculus with 29 samples.

Results

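Interleukins, the tumor necrosis factor (TNF) superfamily and the receptors of both were followed through the bladder RNA-seq libraries as 1 group of 90 genes among the 35199 genes of the tables. Members are the genes whose symbol begins with Il and a digit, or with Tnfsf or Tnfrsf and a digit, and which reached 10 normalized counts in at least 3 libraries of 1 table. The minimum was applied in the 5 tables used here. The pattern matched 113 symbols and 23 of these were below the minimum in those tables, among them Il13, Il17a, Il17c, Il22, Il5 and Tnfrsf8. The group holds 63 genes of interleukins, their receptors and antagonists, 9 TNF superfamily ligands and 18 TNF receptors. Just inside the minimum lay Il12b, with 10.8 normalized counts in its third-highest library, and just outside it lay Il23r with 9.31. Il4i1 matches the pattern by its name, although it encodes an amino acid oxidase and not a cytokine.

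Interleukins and TNF ligands carry signals between epithelial, stromal and immune cells. Receptors of the IL-1 and IL-17 families pass the signal through Toll/IL-1 receptor type domains to NF-kB, most other interleukin receptors act through JAK kinases and STAT factors, and TNF receptors recruit either TRAF adaptors or, by a death domain, the machinery of cell death. In the urothelium, the epithelial lining of the bladder, alarm cytokines such as IL-1 alpha, IL-18 and IL-33 are held in epithelial cells, and IL-17 receptors on the epithelium answer cytokines made by lymphocytes and by the epithelium itself.

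The study expressed VP16;Pparg, a constitutively active form of the nuclear receptor Pparg1, in basal cells of the urothelium by means of a Cre recombinase driven by Krt5, and asked how this alters differentiation and tumor formation. Cells carrying Gfp were collected by sorting on day 4 after the last tamoxifen dose of a course that ran for 1 week, from 4 controls and 5 K5VP16;Pparg mutants that had received no carcinogen. The labels give the genotype of mutants and of their tumors as K5VP16;Pparg+/- and that of controls as wild type, whereas the methods give sorted controls that carry the Krt5 Cre and the mTmG reporter alone. Tumor libraries were laser-captured from frozen bladders of mice given 0.05% BBN, a nitrosamine bladder carcinogen, in drinking water, with tamoxifen placed in the bladder after the first month. For control tumors the study names both VP16;Pparg fl/fl and K5;mTmG mice. The tumor libraries comprise 3 basal tumors of controls, 3 luminal tumors of mutants, 3 luminal domains taken from the top and 3 basal-like domains taken from the bottom of mixed mutant lesions. Sample titles call the tumors 4-month tumors and the treatment field gives 5 months of BBN, and per the methods mice were 8 to 12 weeks old when tamoxifen was given. The sex of the mice behind a library was not in the sources used here. Since recombination is driven from Krt5, the transgene reaches basal cells and their descendants, and the Gfp sort does not separate those descendants by layer. The sorted libraries held the basal marker Krt5 at 62918 to 109572 normalized counts and the luminal marker Upk1a at 66833 to 128424, so they are called sorted cells here. No label says that the libraries of a group came from separate mice, so p-values measure the spread between these libraries.

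Values are normalized counts, that is estimated read counts divided by a factor for each gene and library. The sum over all genes ranged from 36520193 to 53904714 per library and the members held between 0.116% and 0.327% of it. The read depth reached by each library is unknown here, so counting intervals cannot be given. Urothelial markers such as uroplakins and Krt20 were found in all groups, and their summed level was 2366 to 16086 normalized counts in the basal tumors against 102625 to 637328 in the luminal tumors of the same table. Libraries CT113, CT140 and CT074 stood apart, and CT149 is described with the basal-like domains. The basal tumor library CT113 held the highest value for 33 of the 74 members tested among tumors (44.6%, against 14.9% of all genes), with T cell markers (Cd3d, Cd3e, Cd3g, Cd2, Trac, Cd4 and Cd8a) summing to 9633 normalized counts against 306 and 879 in the other basal tumors, and B and plasma cell markers to 53985 against 1376 and 120. The luminal tumor library CT140 had a basal and squamous marker sum (Krt5, Krt14, Krt6a, Krt16, Trp63, Cd44 and Col17a1) of 299298 normalized counts against 82499 and 15793 in the other luminal tumors and 369059 to 824485 in the basal tumors. Of the 6 neutrophil markers 4 were higher in it than in the other luminal tumors, namely S100a8 (6356 against 187 and 68.2), S100a9 (8586 against 47.1 and 19.1), Csf3r (422 against 0 and 2.28) and Cxcr2 (1739 against 56.6 and 853), and Ly6g and Mpo lay at 5.38 and 0. Among sorted cells, mutant library CT074 held the highest value for 22 of 79 members (27.8%, against 13.3% of all genes). Mutant CT076 held it for 13 (16.5%, against 8.26%) and control CT067 for 12 (15.2%, against 7.4%).

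In all, 69 members reached the minimum both at 4 days and in a table of tumors. Only the sorted cells brought in 13 further members, among them Il10, Il17rb, Il22ra1, Il25 and Il31ra, and only the tumors brought in 8, namely Il10ra, Il13ra2, Il1f6, Il23a, Il24, Il27, Tnfsf4 and Tnfsf8. Il1f6, an IL-36 cytokine, was listed at 0 in all 9 sorted libraries and at up to 185 normalized counts among tumors. Il22ra1, the receptor chain by which epithelia sense IL-22, reached 349 in the sorted cells and was listed at 0 in all 8 libraries of the table of basal and luminal tumors. These tables were normalized separately and the cells were collected differently, so no test was made between them.

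The genes lie in groups on the genome. Placed in the mouse annotation GENCODE M21 (GRCm38), 30 of the 90 members form 12 runs in which neighbors are at most 200 kb apart. The longest run holds Il1r2, Il1r1, Il1rl2, Il1rl1, Il18r1 and Il18rap on chr1:40074079-40551705. Il17re (chr6:113458484-113470758) and Il17rc (chr6:113471427-113483140) lie on the same strand, 0.7 kb apart, and encode the receptor chains that join Il17ra to bind IL-17C and IL-17A or IL-17F. Tnfrsf21 (chr17:43016555-43089189), which encodes death receptor 6, and Il18 (chr9:50554827-50581840), which encodes the inflammasome-processed cytokine IL-18, each stand alone and also lie on the plus strand.

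The promoters of these 4 genes are shown because these genes had the smallest p of all members in the comparison of luminal domains with basal tumors. Each is the 300-base window around the gene's start in RefSeq (GRCm38.p6, plus strand, 5′ to 3′), with CpG dinucleotides in capitals. The windows lie at chr6:113458521-113458820, chr6:113471205-113471504, chr17:43016305-43016604 and chr9:50554450-50554749.
Il17re: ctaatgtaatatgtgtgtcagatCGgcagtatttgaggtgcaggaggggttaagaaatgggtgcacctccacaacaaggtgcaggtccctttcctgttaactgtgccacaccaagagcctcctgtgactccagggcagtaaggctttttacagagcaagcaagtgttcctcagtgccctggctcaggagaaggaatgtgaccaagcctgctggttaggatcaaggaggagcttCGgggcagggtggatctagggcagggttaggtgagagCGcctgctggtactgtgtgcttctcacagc
Il17rc: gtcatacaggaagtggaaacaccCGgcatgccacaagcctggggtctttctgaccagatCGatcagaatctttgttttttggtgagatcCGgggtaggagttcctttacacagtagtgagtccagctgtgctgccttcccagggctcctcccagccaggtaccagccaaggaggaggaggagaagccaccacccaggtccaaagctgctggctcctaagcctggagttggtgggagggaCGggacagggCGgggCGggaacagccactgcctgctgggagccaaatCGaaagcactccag
Tnfrsf21: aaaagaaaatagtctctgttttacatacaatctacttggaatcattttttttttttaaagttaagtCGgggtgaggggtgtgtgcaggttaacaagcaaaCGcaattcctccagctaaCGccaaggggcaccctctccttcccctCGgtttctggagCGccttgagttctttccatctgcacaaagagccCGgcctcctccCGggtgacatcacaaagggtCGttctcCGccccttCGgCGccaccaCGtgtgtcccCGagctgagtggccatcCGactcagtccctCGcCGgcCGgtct
Il18: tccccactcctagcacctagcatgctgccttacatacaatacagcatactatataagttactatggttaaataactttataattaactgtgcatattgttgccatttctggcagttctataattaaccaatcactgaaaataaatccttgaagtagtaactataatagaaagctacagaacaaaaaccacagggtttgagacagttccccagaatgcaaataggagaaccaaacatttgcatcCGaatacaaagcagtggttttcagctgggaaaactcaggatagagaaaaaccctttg

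These windows differ in CpG content. Il17re has 3 CpG, and 31.4% of all 32851 promoters have at most as many. Il17rc has 7 (51.4%), Tnfrsf21 has 17 (70.3%) and Il18 has 1 (14.1%). Searched on both strands, none of the 4 windows holds the PPAR-type repeat (2 copies of AGGNCA that are 1 base apart), the half-site AGGTCA or the AP-1 motif TGANTCA. The half-site is contained in the repeat where its open base is T, so those searches overlap. Among all promoters 0.381% hold the repeat, 16.3% the half-site and 7.81% the AP-1 motif. Promoters of members numbered 85, from 68 of the 90 genes. The repeat occurred in 1 of them, that of Tnfsf10, the half-site in 13 (15.3%) and the AP-1 motif in 15 (17.6%). The letters TATAAA, found in 13.6% of all promoters, occur in the window of Il18 and in none of the other 3.

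The first comparison asked how these genes differ in sorted cells of mutants on day 4 after the last tamoxifen dose. Il1rl2, the receptor for the IL-36 cytokines, and Il3ra, the alpha chain of the IL-3 receptor, rose in mutants, and no member fell. These were 2 of the 79 members tested (2.53%), where 467 of all 16413 genes tested passed (2.85%, with 1.77% higher and 1.08% lower). A gene is said to rise or fall where limma on log2(normalized count + 1) gave a Benjamini-Hochberg adjusted p under 0.05 over all genes tested, a scale on which the change of low genes is understated. Groups did not overlap for 8 members (10.1%, against 9.18% of all genes), 7 of them higher and 1 lower in mutants. The median log2 fold change was 0.27 over members and 0.01 over all genes.

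Il1rl2 lay at 219, 162, 253 and 222 normalized counts in the controls and at 469, 426, 481, 383 and 508 in the mutants. Every mutant was above every control, and the difference was 1.09 ± 0.17 (SE) on the log2 scale (adjusted p = 0.014, limma). Of its ligands only Il1f9 was tested at this time, at 179 to 287 in controls and 141 to 223 in mutants. Il3ra lay at 108, 82.8, 116 and 88.0 in controls and at 218, 200, 230, 218 and 370 in mutants, again without overlap, and differed by 1.29 ± 0.23 (adjusted p = 0.0214). The gene (chr14:14346275-14356011) shares exon sequence with Gm48860 on the opposite strand. The library kit does not mark strand, so reads from the shared stretch cannot be told apart. Other members named here also share exon sequence with another gene, among them Tnfsf9, Tnfrsf23, Il1a, Tnfrsf18, Il34, Il1rap and Il10rb. Csf2rb, the shared beta chain with which Il3ra signals, lay between 31.4 and 54.3 in controls and overlapped with mutants, which spanned 24.6 to 61.6.

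The Y-linked genes Ddx3y, Eif2s3y, Kdm5d and Uty differed between most controls and the mutants. Their mean log2 level was 11.05 to 11.11 in 3 controls, 5.59 in control CT063 and 5.16 to 5.91 in the mutants, so that control CT063 is the one library in which genotype and Y-linked level part. With this level as a covariate the adjusted p was 0.35 for Il1rl2 (1.04 on the log2 scale) and 0.426 for Il3ra (1.15), and of all genes 26 passed. Control CT063 had 219 and 108 normalized counts of Il1rl2 and Il3ra, within the range of the other controls. In the second deposited table of 3 controls and 3 mutants the adjusted p was 0.0802 and 0.1. Without control CT065, CT066 or CT067 Il3ra was not called either (adjusted p = 0.0788, 0.0627 and 0.069), and without mutant CT071 there were 6 calls.

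**Figure D1:**
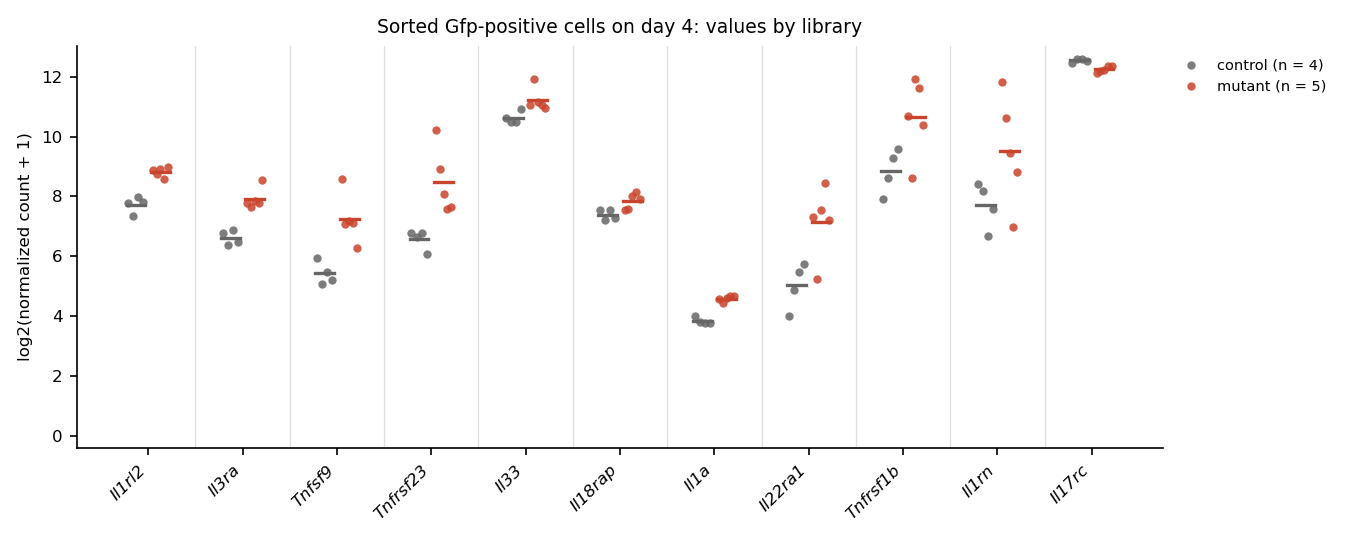
Members in sorted Gfp-positive cells on day 4, with log2(normalized count + 1) on the vertical axis. Points are libraries (4 controls, 5 mutants) and bars are group means. Mutants lie above all controls for Il1rl2, Il3ra, Tnfsf9, Tnfrsf23, Il33, Il18rap and Il1a and below all controls for Il17rc, and the groups overlap for Il22ra1, Tnfrsf1b and Il1rn.

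Another 5 members were higher in every mutant than in every control without passing the test. Tnfsf9, the ligand of the lymphocyte receptor Tnfrsf9, lay at 60.7, 32.7, 43.5 and 36.4 in controls and at 381, 135, 146, 138 and 75.7 in mutants (1.82 ± 0.42, adjusted p = 0.0517). Tnfrsf23, a receptor for TRAIL that lacks a death domain, lay at 66.9 to 109 in controls and at 1185, 479, 272, 192 and 199 in mutants (1.92 ± 0.50, adjusted p = 0.0712). In both genes mutant CT070 was far above the rest.

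Il33, a nuclear alarm cytokine, spanned 1426 to 1931 in controls against 1983 to 3906 in mutants (0.60 ± 0.20, adjusted p = 0.127). Il1a, the alarm cytokine IL-1 alpha, had 12.5 to 15.2 in controls and 20.7 to 24.4 in mutants, a low level with little spread (0.75 ± 0.25, adjusted p = 0.132). Il18rap, the accessory chain of the IL-18 receptor, had 147 to 185 and 188 to 286 (0.45 ± 0.20, adjusted p = 0.225). Il18 itself overlapped, with 106 to 375 in controls and 98.5 to 650 in mutants (0.99 ± 0.55, adjusted p = 0.343), and Il6 was at or under 25.7 in all 9 libraries and was not tested.

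Il17rc was the one member lower in every mutant, at 5697, 6135, 6223 and 5879 in controls and 4495, 4655, 4784, 5278 and 5291 in mutants (-0.29 ± 0.08, adjusted p = 0.082). Its neighbor Il17re overlapped, at 8737 to 11875 in controls and 9175 to 11355 in mutants (0.04 ± 0.11, adjusted p = 0.852), and so did Tnfrsf21 at 12503 to 16202 and 13415 to 19750 (0.17 ± 0.14, adjusted p = 0.525). Across roles, 3 of 4 tested IL-1 family ligands, 6 of 8 IL-1 family receptors and all 4 tested death-domain TNF receptors had positive differences, whereas all 3 IL-17 cytokines and all 3 common gamma chain and type 2 cytokines had negative ones, and of these members Il1rl2 alone passed the test.

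Receptors with large but variable differences were Il22ra1 (mean ± SD 35.2 ± 16.8 over 4 controls against 176 ± 112 over 5 mutants, adjusted p = 0.089) and Tnfrsf1b, the TNF receptor of leukocytes and stroma (503 ± 236 against 2081 ± 1408, adjusted p = 0.139). The IL-1 receptor antagonist Il1rn averaged 229 ± 105 in controls and 1284 ± 1394 in mutants, of which CT070 had 3589 and CT076 had 125 (adjusted p = 0.248). Il11ra2, a near copy of Il11ra1 with which it can exchange reads, averaged 34.4 ± 9.13 in controls and 12.5 ± 21.7 in mutants (adjusted p = 0.158).

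Of the remaining classes the member with the smallest p was given as well. Tnfrsf1a, the main TNF receptor of epithelia, averaged 4289 ± 229 in controls and 5469 ± 981 in mutants (0.33 ± 0.13, adjusted p = 0.182). The lymphocyte attractant Il16 averaged 292 ± 200 and 592 ± 429, and the IL-17 family cytokine Il17d 258 ± 41.1 and 184 ± 59.6. Il4, Il11, Il12b and Il12rb1 averaged at most 38.7 normalized counts in either group, with adjusted p from 0.13 to 0.9. Il10, an anti-inflammatory cytokine, lay at 0 to 9.58 in controls and 3.01 to 59.1 in mutants, and is given without a test, since no control reached 10 normalized counts and it passed the filter through mutants alone.

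Stromal markers moved with the genotype in the same libraries. All 7 fibroblast markers (Col1a1, Col1a2, Col3a1, Dcn, Lum, Pdgfra and Pdgfrb) had positive differences, Lum was called, and their sum was 11668 to 84727 in controls and 30691 to 217844 in mutants. All 6 smooth muscle markers were also positive, with sums of 174 to 1042 and 410 to 2719. T cell sums were 154 to 250 in controls and 123 to 176 in mutants. Mutants CT074 and CT076, with the highest fibroblast sums, also had the highest values of Tnfrsf1b, Il16, Il18rap and Il18bp. These members were picked for this after their values were seen, so the choice fixed the match. Other members were highest elsewhere, such as Il3ra in CT078, Tnfsf9 and Tnfrsf23 in CT070 and Il33 in CT071. The sort for Gfp was meant to collect cells of the Krt5 lineage, yet these libraries held stromal RNA. The purity of the sort is not known here. The part of stromal RNA in these differences was not tested, and in bulk libraries fewer cells of a type and less RNA per cell cannot be told apart.

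Genes around the members were read from lists. Of 33 cytokine and TNF family genes under other names, 21 were tested and 0 rose or fell, with 4 at an unadjusted p under 0.05. Over all genes tested 20.8% had an unadjusted p under 0.05. Among 35 adaptors and kinases of the Toll/IL-1 and TNF receptors and 23 JAK, STAT and SOCS genes, all were tested and 0 passed, with 5 and 4 at an unadjusted p under 0.05 and medians of 0.02 and -0.01. Of 11 genes that process IL-1 family cytokines 9 were tested and 0 passed, with 4 at an unadjusted p under 0.05 and a median of 1.07. Of these 9 genes 3 were above all controls in every mutant. One of the 3, Pycard, the inflammasome adaptor, is given although it was chosen after its values were seen. It lay at 2548, 2918, 1290 and 1629 in controls and at 6174, 6464, 3254, 3107 and 3115 in mutants, with adjusted p = 0.0952.

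Luminal tumors of mutants were then compared with basal tumors of controls. Il17re and Tnfrsf21 rose and no member fell, 2 of 74 members tested (2.7%), against 338 of 15357 genes (2.2%, with 1.26% higher and 0.938% lower). Groups did not overlap for 20 members (27%, against 21.5% of genes), 4 of them higher and 16 lower in luminal tumors. Of these, Il13ra2 among the higher and Tnfsf12, Tnfsf8 and Tnfrsf11b among the lower reached 10 normalized counts in 1 of the 2 groups only, so that the filter itself fixed their direction. Without them 3 were higher and 13 lower, 16 of 70 members (22.9%), a share not redone over all genes. The median log2 fold change was -0.71 over the other 70 members tested, 47 of them with negative differences, and -0.11 over all genes.

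Il17re lay at 868, 664 and 382 normalized counts in basal tumors and at 4050, 5083 and 2923 in luminal tumors. The lowest luminal tumor was above the highest basal tumor, and the difference was 2.70 ± 0.41 on the log2 scale (adjusted p = 0.0256, limma). Il17rc, its neighbor, lay at 551, 1952 and 1746 and at 4984, 3739 and 6547, without overlap (2.01 ± 0.49, adjusted p = 0.0734). The partner chain Il17ra was at 708, 794 and 143 in basal tumors and at 279, 315 and 193 in luminal tumors, and overlapped (-0.75 ± 0.80, adjusted p = 0.67). Il17rd, a further receptor of the family, overlapped as well.

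Tnfrsf21 lay at 248, 986 and 330 in basal tumors and at 4266, 3866 and 2071 in luminal tumors, so that every luminal tumor exceeded every basal tumor (2.90 ± 0.55, adjusted p = 0.0364). Il18 lay at 1122, 841 and 386 in basal tumors and at 9439, 15069 and 775 in luminal tumors. Luminal tumor CT140, which also had the highest basal keratins of the luminal tumors (Krt6a 94166 against 6903 and 1634, Krt14 95586 against 16891 and 2431), was within the range of the basal tumors, and the difference of 2.75 ± 0.96 had an adjusted p of 0.175. Without CT140 it was 4.06, with an adjusted p of 0.00852. Il1b, a cytokine of activated myeloid cells, had its highest value of 6926 in that same library, against 54.5 and 123 in the other luminal tumors and 5135, 1734 and 992 in the basal tumors. It was named after its values were seen.

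The 2 calls rest on few libraries. Without basal tumor CT111, or without luminal tumor CT126 or CT132, neither was called, and the adjusted p of Il17re was then 0.0539, 0.0883 and 0.0923, with differences of 2.96, 2.67 and 2.51. Without CT115 Tnfrsf21 alone was lost (adjusted p = 0.0913), and 5 members were called without CT140. Without CT113, the library rich in lymphocyte markers, 3 members passed, Tnfrsf19 being the added one, with a median over members of -0.65.

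**Figure D2:**
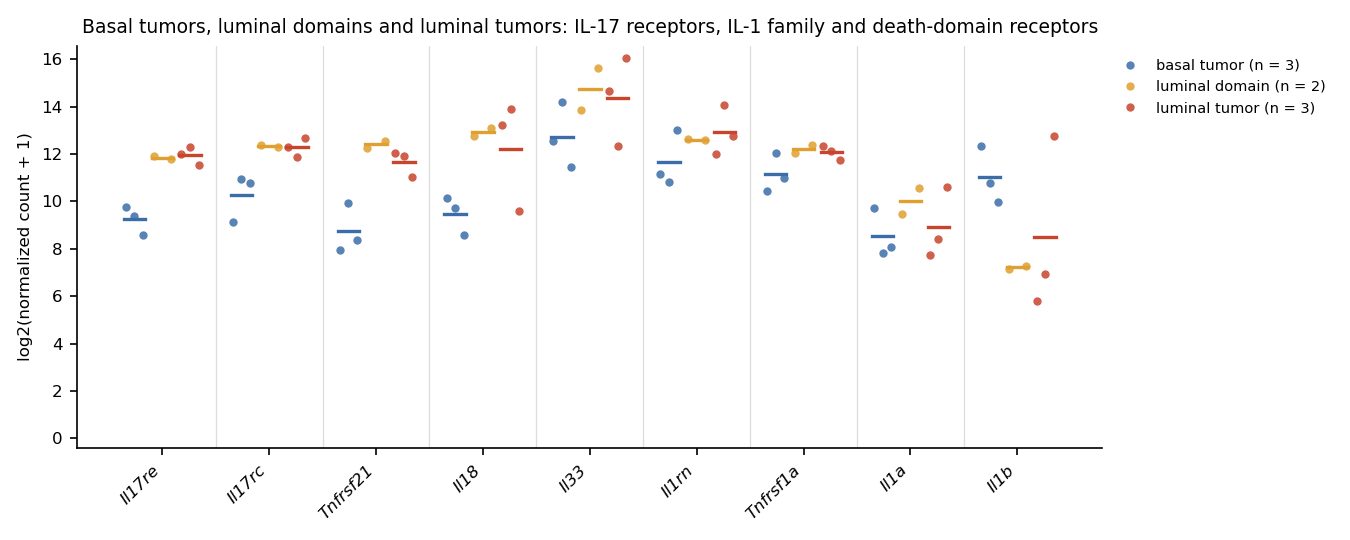
IL-17 receptors, IL-1 family genes and death-domain TNF receptors in basal tumors (3 libraries), luminal domains (2) and luminal tumors (3) of 1 table, with log2(normalized count + 1) on the vertical axis. Points are libraries and bars are group means. Basal tumors lie below both other groups for Il17re, Il17rc and Tnfrsf21, and 1 luminal tumor lies among the basal tumors for Il18 and above them for Il1b.

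The members that were lower in every luminal tumor than in every basal tumor numbered 13 without Tnfsf12, Tnfsf8 and Tnfrsf11b, and none of the 13 passed the test. Tnfrsf18, a costimulatory receptor of T cells, lay at 276, 2741 and 1058 in basal tumors and at 62.9, 129 and 118 in luminal tumors (-3.22 ± 0.92, adjusted p = 0.111). Tnfrsf9, a receptor of activated T cells, lay at 293, 1550 and 316 and at 118, 0 and 49.3 (adjusted p = 0.184). Il2ra, the alpha chain of the IL-2 receptor, lay at 61.0, 552 and 30.4 and at 1.16, 1.17 and 29.0 (adjusted p = 0.209).

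Il15ra and Il10ra, receptor chains for IL-15 and IL-10, averaged 434 ± 441 and 358 ± 220 in basal tumors and 26.4 ± 36.4 and 34.4 ± 38.3 in luminal tumors. In Tnfrsf18, Tnfrsf9, Il2ra, Il15ra and Il10ra the highest basal tumor was CT113. The IL-7 receptor Il7r had 413, 1288 and 228 against 85.3, 27.0 and 97.8, and was also highest in CT113.

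In other members of this set CT113 stood less far from, or below, the other basal tumors. Tnfrsf12a, the receptor of Tnfsf12, lay at 12157, 11562 and 26471 in basal and at 4090, 6376 and 6099 in luminal tumors (-1.52 ± 0.59, adjusted p = 0.217). Its ligand Tnfsf12 lay at 132, 166 and 15.2 and at 0.938, 0.95 and 0, and its gene overlaps the read-through gene Tnfsfm13 on the same strand. Tnfsf8, the ligand of Tnfrsf8, lay at 254, 197 and 37.0 in basal tumors and was listed at 0 in all 3 luminal tumors.

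Il34, a ligand of the macrophage receptor Csf1r, lay at 182, 356 and 326 in basal and at 0, 0 and 104 in luminal tumors (adjusted p = 0.14). Tnfrsf11b, the decoy receptor osteoprotegerin, lay at 273, 109 and 30.5 and at 0, 3.51 and 1.04. Il13ra1, a chain of the IL-13 receptor, was lower by a smaller amount with less spread, at 2451, 3049 and 2152 against 1018, 804 and 755 (-1.57 ± 0.41, adjusted p = 0.0894). Il13ra2, a decoy for IL-13, was the fourth member higher without overlap, at 1.19, 3.40 and 5.93 in basal and 6.34, 27.8 and 136 in luminal tumors. No luminal tumor reached 10 normalized counts of Tnfsf12, Tnfsf8 or Tnfrsf11b and no basal tumor reached it for Il13ra2, so that these 4 entered the test through the groups where they are high, and their values are given without a test.

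Il1rap, the accessory chain shared by IL-1, IL-33 and IL-36 receptors, averaged 484 ± 203 in basal and 89.3 ± 133 in luminal tumors (adjusted p = 0.279). Il23a, a subunit of IL-23, averaged 129 ± 114 and 16.4 ± 7.34 (adjusted p = 0.286), and the IL-11 receptor chain Il11ra1 323 ± 123 and 88.3 ± 79.1 (adjusted p = 0.289). All 3 were without overlap, as was Tnfrsf26 at 94.2 to 659 and 30.5 to 87.3.

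Il6, a cytokine that signals through gp130, overlapped at 49.1, 199 and 79.7 in basal and at 0, 114 and 0 in luminal tumors (adjusted p = 0.323). Il1a overlapped too, at 843, 228 and 269 and at 214, 338 and 1571 (0.38 ± 0.86, adjusted p = 0.856), and its difference was negative without CT140. Il18bp, Il12rb1, Il15 and Il17d, the smallest p of their classes, had adjusted p from 0.276 to 0.824.

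**Figure D3:**
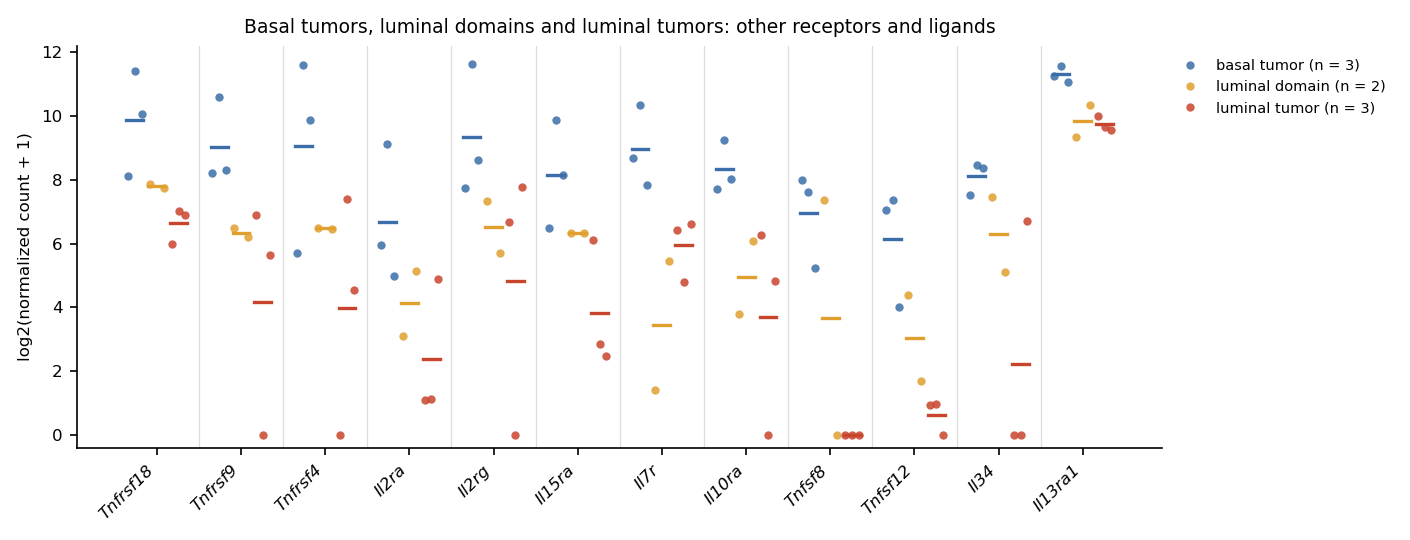
Further receptors and ligands in basal tumors (3 libraries), luminal domains (2) and luminal tumors (3) of 1 table, with log2(normalized count + 1) on the vertical axis. Points are libraries and bars are group means. Basal tumors lie above all luminal tumors for each gene except Tnfrsf4 and Il2rg, and Tnfsf8 is at 0 in the 3 luminal tumors.

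By role, and without the 4 members whose direction the filter fixed, all 9 receptors for common gamma chain, beta c and type 2 cytokines had negative differences (median -3.0), as had 4 of 6 TNF superfamily ligands (median -1.28), 6 of 8 TRAF-binding TNF receptors (median -2.21) and all 3 TNF decoy receptors (median -0.61). Of the 6 IL-1 family ligands 4 were positive (median 1.01). Markers of other cells moved with these members. Smooth muscle markers summed to 6010 to 51207 normalized counts in basal tumors and 150 to 1254 in luminal tumors, with 3 of 6 called lower. Of these markers Cnn1 and Des reached 10 normalized counts in no luminal tumor, so the filter fixed their direction. The count of calls was not redone without them. Fibroblast markers summed to 45143 to 67706 and 212 to 17149, again with 3 of 7 called lower, and macrophage markers to 34744 to 163802 and 4328 to 23734 with 0 of 9 called. T cell markers overlapped, at 306 to 9633 in basal and 195 to 911 in luminal tumors, and of the 7 tested 0 were called, with 1 at an unadjusted p under 0.05. Leukocyte markers were lower in 6 of 6 genes, endothelial markers in 5 of 5 and neutrophil markers in 4 of 5 tested. B and plasma cell markers were lower in 2 of 2 tested, of which Cd79b was listed at 0 in all 3 luminal tumors. In these lists 0 genes were called, and 2, 2, 0 and 2 had an unadjusted p under 0.05, against 18.4% of all genes. Epithelial markers went the other way, at 63129 to 179051 and 433407 to 713840. The part of tissue composition in the differences of members was not tested.

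The luminal domains of mixed lesions were set against the same basal tumors in a table of their own. Il17re, Tnfrsf21 and Il18 rose in luminal domains and no member fell, 3 of 74 members tested (4.05%), against 377 of 14921 genes (2.53%, with 1.7% higher and 0.824% lower). Groups did not overlap for 17 members (23%, against 26.8% of genes), 7 of them higher and 10 lower. The median log2 fold change was -0.71 over members and 0.01 over all genes. Since both comparisons use the same 3 basal tumors, similar differences in them are not independent.

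Tnfrsf21 lay at 5273, 6565 and 4395 in luminal domains and at 261, 1020 and 345 in basal tumors (3.56 ± 0.53, adjusted p = 0.0258). Il17re lay at 4082, 3782 and 3796 in luminal domains and at 906, 679 and 394 in basal tumors (2.64 ± 0.39, adjusted p = 0.0258). Il18 lay at 7285, 9434 and 4115 and at 1178, 866 and 400 (3.14 ± 0.49, adjusted p = 0.0275). In all 3 genes the lowest luminal domain was above the highest basal tumor.

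Il17rc had 5675, 5508 and 5876 in luminal domains, a narrow range, and 587, 2038 and 1838 in basal tumors (2.13 ± 0.48, adjusted p = 0.0662). Tnfrsf1a, the other death-domain receptor without overlap, had 4534, 5691 and 5867 against 1456, 4306 and 2111 (1.17 ± 0.41, adjusted p = 0.169). Tnfrsf11a, the receptor of RANK ligand, had 691, 1545 and 853 against 45.1, 622 and 303 (adjusted p = 0.241), and Il20ra, a receptor chain for IL-20 cytokines, 133, 59.1 and 122 against 16.4, 0 and 24.2 (adjusted p = 0.213).

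The calls needed all 3 luminal domains. Without any 1 of CT128, CT143 or CT148 no member was called, and the adjusted p of Il17re was then between 0.0868 and 0.113 with differences from 2.601 to 2.656. Without basal tumor CT111 Il17re alone was called. Without CT113 there were 6 calls, Tnfrsf19, Il17rc and Tnfrsf1a being added, and the median over members was -0.12 in place of -0.71. With the 2 luminal domains of the larger table no member (0) was called, with adjusted p of 0.0586 for Il17re, 0.0501 for Tnfrsf21 and 0.212 for Il18.

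Lower in every luminal domain, without passing, were cytokines and receptors. Il6 was listed at 0 in CT128 and CT148 and at 34.7 in CT143, against 53.9, 214 and 86.4 in basal tumors (-4.94 ± 1.66, adjusted p = 0.155). Il11, a further gp130 cytokine, lay at 13.6, 82.9 and 60.3 against 150, 137 and 804 (adjusted p = 0.252). Il10ra lay at 13.8, 72.2 and 18.5 against 218, 630 and 268 (-3.59 ± 1.04, adjusted p = 0.113).

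Il23a, Il1rap, Il34 and Tnfrsf9 were again below every basal tumor, with mean normalized counts of 18.4 ± 15.1, 103 ± 115, 134 ± 92.7 and 146 ± 110 in luminal domains and 132 ± 118, 512 ± 213, 366 ± 115 and 712 ± 707 in basal tumors. Tnfrsf26 averaged 55.8 ± 10.1 and 370 ± 302. Adjusted p for these 5 lay between 0.234 and 0.322, and Il11ra1 and Il17rd completed the 10 without overlap. Tnfsf4, the ligand of Tnfrsf4, Il7r, Il24 and Tnfrsf19, a receptor without a known TNF ligand, overlapped with differences of -5.43, -4.00, -4.20 and 4.58. In Tnfrsf19 the basal tumors had 2.36, 1248 and 30.1, so that CT113 alone reached the level of the luminal domains (919, 1532 and 1255).

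Il1a overlapped at 748, 1657 and 1839 against 888, 235 and 280 (1.76 ± 0.65, adjusted p = 0.186), and Il1rn averaged 6791 ± 215 and 4316 ± 3733 (adjusted p = 0.339). Il27ra, Il12rb1, Il17d and Il7 had adjusted p from 0.523 to 0.767. Of the family genes under other names 24 were tested and 1 had an adjusted p under 0.05, Relt, a TNF receptor of lymphoid tissue, with 278, 195 and 167 in basal tumors and 7.70, 0 and 0 in luminal domains. Relt reached the minimum for testing through the basal tumors alone, so its place among the genes tested depends on the difference itself and it is not counted as having fallen. With no minimum its adjusted p was 0.0952. Adaptors and kinases (35 tested), JAK, STAT and SOCS genes (23) and processing genes (9) had 0 calls and 5, 1 and 1 genes at an unadjusted p under 0.05. In the comparison of luminal tumors these 4 lists had 0 calls, with 26, 35, 23 and 10 genes tested and 4, 3, 3 and 2 at an unadjusted p under 0.05. Over all genes tested the share at an unadjusted p under 0.05 was 20.6% for luminal domains and 18.4% for luminal tumors. Smooth muscle markers summed to 1430 to 1911 in luminal domains and 6298 to 57231 in basal tumors, with 3 of 6 called lower, and fibroblast markers to 5298 to 31667 and 46663 to 71458. Cnn1, a smooth muscle marker, was listed at 0 in all 3 luminal domains, so the filter fixed its direction as for Relt. The count of calls was not redone without it. Leukocyte markers were lower in 6 of 6 genes, with sums of 3734 to 8696 and 6557 to 36162, and macrophage markers in 7 of 9, with sums of 15363 to 43056 and 36234 to 172399, and in each list 0 genes were called and 3 had an unadjusted p under 0.05. Epithelial markers were higher in 5 of 6 genes, all 5 without overlap and 1 of them called. T cell markers were higher in 4 of 7 genes and endothelial markers in 4 of 5. Neutrophil markers were lower in 4 of 5 tested and B and plasma cell markers in 2 of 2. In these lists 0 genes were called. T cell sums overlapped, at 329 to 1280 in luminal domains and 323, 9832 and 922 in basal tumors, where CT113 had the 9832. The part of these markers in the differences of members was not tested.

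**Figure D4:**
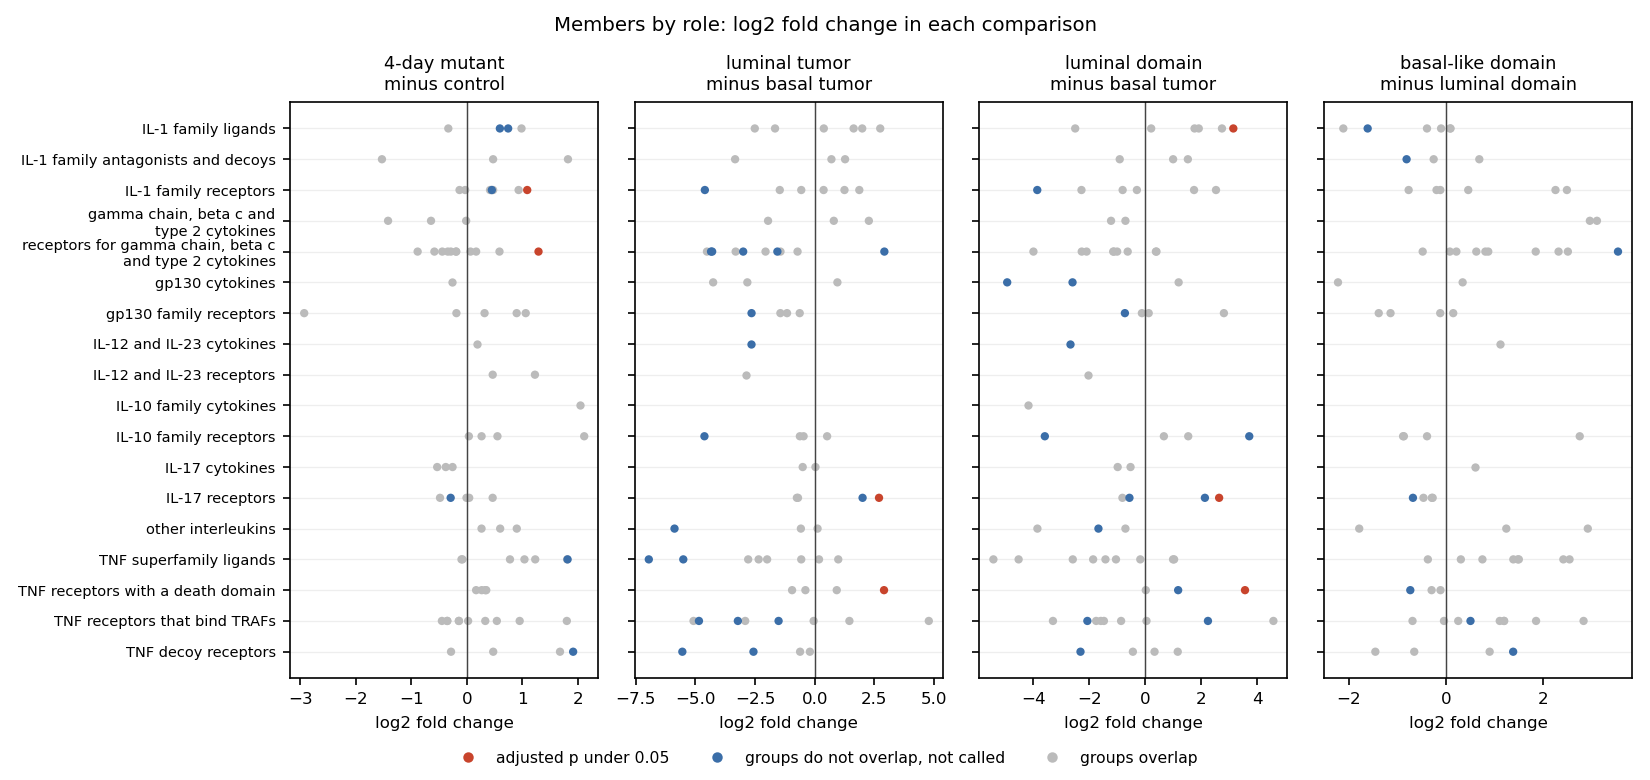
Log2 fold changes of the tested members, grouped by role, in the 4 comparisons. Each point is 1 member. Red points passed the adjusted p of 0.05 (2, 2, 3 and 0 members), blue points did not pass but had groups without overlap, and gray points overlapped. Receptors for common gamma chain, beta c and type 2 cytokines lie mostly left of 0 in luminal tumors. The IL-17 receptor called, Il17re, lies right of 0 in both comparisons with basal tumors.

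Within mixed lesions the basal-like domains were compared with the luminal domains. No member passed, and nor did any of the 14874 genes tested (0 higher, 0 lower, 0%), so differences could only be described. At an unadjusted p under 0.05 there were 7 of 70 members (10%), against 5.09% of genes. Groups did not overlap for 7 members (10%, against 10.8% of genes), 3 of them higher and 4 lower in basal-like domains. Luminal domains entered here also served in the comparison with basal tumors, and whether the domains of a lesion came from the same mice is not known from the columns.

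Il18, Il17re and Tnfrsf21, the genes called in luminal domains, were lower in every basal-like domain. These genes were called because the same luminal domains were high, so the choice favored this direction. Il18 lay at 7286, 9557 and 4165 in luminal and at 2841, 3383 and 1046 in basal-like domains (-1.62 ± 0.49, adjusted p = 0.871). Il17re lay at 4228, 3967 and 3978 and at 2368, 2904 and 2346 (-0.68 ± 0.22, adjusted p = 0.933). Tnfrsf21 lay at 5347, 6744 and 4511 and at 3515, 3651 and 2738 (-0.74 ± 0.25, adjusted p = 0.935).

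Il1rn was the fourth gene lower without overlap, at 6566, 6557 and 6957 against 4574, 2648 and 4555 (-0.81 ± 0.27, adjusted p = 0.933). Il17rc overlapped, at 5701, 5604 and 5973 against 3259, 5395 and 5903. Higher in every basal-like domain were Il7r, at 2.05, 54.5 and 299 against 417, 403 and 480 (3.55 ± 1.54), Tnfrsf26, at 44.9, 64.9 and 61.4 against 98.8, 142 and 234, and Tnfrsf19, at 780, 1317 and 1078 against 1627, 1433 and 1358. Their adjusted p was 0.935.

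**Figure D5:**
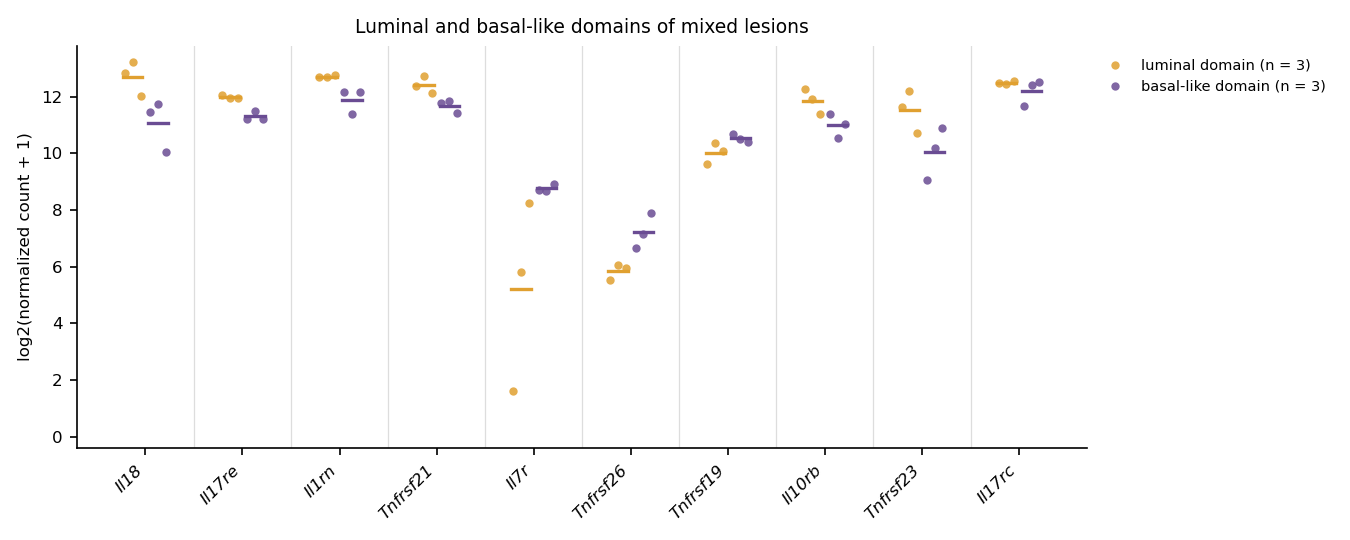
Members in luminal (3 libraries) and basal-like domains (3) of mixed lesions, with log2(normalized count + 1) on the vertical axis. Points are libraries and bars are group means. Basal-like domains lie below luminal domains for Il18, Il17re, Il1rn and Tnfrsf21 and above them for Il7r, Tnfrsf26 and Tnfrsf19, and overlap for Il10rb, Tnfrsf23 and Il17rc.

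Of the other members the leading gene of each class overlapped. Tnfrsf23 averaged 1209 ± 692 in basal-like and 3188 ± 1532 in luminal domains, Il10rb, the shared chain of IL-10 and IL-22 receptors, 2092 ± 599 and 3835 ± 1152, Tnfrsf18 877 ± 288 and 431 ± 305, and Il1rl1, the IL-33 receptor, 198 ± 140 and 33.2 ± 26.8. Il10ra, of the same class as Il10rb but outside the naming rule, went the other way, at 253 ± 175 and 35.5 ± 33.2. It overlapped too (2.76 ± 1.14, unadjusted p = 0.0422, adjusted p = 0.935, limma). Il7, Il27, Il27ra, Il23a, Il17d, Il4i1 and Tnfsf13 had adjusted p from 0.935 to 0.981, and Il1a differed by -0.39 ± 0.48. By role, 9 of 10 receptors for common gamma chain, beta c and type 2 cytokines and 7 of 8 TNF superfamily ligands had positive differences, with medians of 0.84 and 1.43, whereas all 4 IL-17 receptors and all 3 death-domain receptors tested had negative ones, with medians of -0.38 and -0.30. Basal-like domain CT149 held the highest value for 20 of the 70 members (28.6%, against 18.3% of all genes). Its T cell marker sum was 4024, against 1767 and 1658 in the other basal-like domains. Chosen after their values were seen, Il15ra was 1234 in CT149 against 102 and 230, and Tnfsf10 was 720 against 147 and 47.7. Other members were highest elsewhere, such as Il4ra and Tnfsf4 in CT144. T cell markers summed to 1658 to 4024 in basal-like and 362 to 1388 in luminal domains, 6 of 7 with positive differences, and uroplakin and other luminal markers summed to 41000 to 97653 and 82700 to 348980, all 9 with negative differences. Leukocyte markers summed to 4604 to 11488 and 3832 to 8907, with 5 of 6 positive, fibroblast markers to 14142 to 104544 and 5520 to 32698, with 6 of 7 positive, and smooth muscle markers to 1929 to 7195 and 1440 to 1921, with all 4 tested positive. Basal and squamous markers summed to 275561 to 521612 and 195108 to 307383, all 7 positive. Of the other lists 5 of 9 macrophage, 1 of 5 neutrophil, 1 of 2 B cell, 2 of 5 endothelial and 1 of 6 epithelial markers were positive. limma called no marker of these lists, and at an unadjusted p under 0.05 there were 3 T cell, 4 luminal, 1 leukocyte, 1 fibroblast, 2 basal and squamous and 1 neutrophil markers. The part of these markers in the differences of members was not tested.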

How the data were processed

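RNA from sorted urothelial cells and laser-captured tumors was sequenced after SMART-Seq v4 amplification and Nextera XT library preparation, which keeps no strand. Per the labels and methods, the authors quantified reads with kallisto 0.44.0 and normalized with DESeq2 1.18. The deposited signal values are therefore estimated counts per gene divided by normalization factors for each gene and library, here called normalized counts. The methods name the mouse genome mm10 (GRCm38) for the STAR alignment behind the heatmaps. The role of GRCh38, and the build used with kallisto, were not stated. Whole reads could not be recovered, and the methods give a target depth but not the depth each library reached. Each table was normalized on its own, so comparisons stayed within a table. Deposited log2 fold changes and p-values of the authors' comparisons were not used. Another 8 columns of per-library values, a table of urothelium after 1 month of BBN, were used neither to choose members nor for a comparison, because the sources do not say which libraries were treated.

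A gene was tested where 4 libraries (sorted cells) or 3 libraries (tumors) or more reached 10 normalized counts. The test was limma 3.58.1 (R 4.3.3) on log2(normalized count + 1), with a mean-variance trend and Benjamini-Hochberg adjustment over all genes tested. Luminal and basal tumors were fitted with the 2 luminal domains of their table, so that the groups share 1 estimate of the spread. The test was checked on simulated data. Samples were grouped from GEO's labels and columns were matched to groups through the library names. Alternatives changed the pseudocount, filter, trend, weights and scaling, or left out each library in turn. Named members are those that passed, up to 12 others without overlap and a group mean of at least 50, the smallest p of each role class, and Il1a, Il6 and Il18. Not every gene named outside this rule is marked as such. Those not marked include neighbors, receptor partners and ligands of named members, members named in another comparison, and genes that complete a count. Members, lists and tests were chosen with earlier results of these data known. Figures and tables used Python 3.11.15, pandas 2.3.3 and matplotlib 3.10.9.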

Additional observations from a re-analysis of the deposited data

Results flagged for a closer look

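A library far from the others of its group, by Dixon's gap ratio on normalized counts, was found in 8 of the 42 groups tested for it. The groups share the same libraries and their genes were named from these data. The ratio also assumes a normal spread, so no share expected by chance is given. Only the sorted cells have groups large enough. Among mutants, Il3ra was 369.9 normalized counts in CT078 against 229.9 in the nearest library. Tnfsf9 was 381.5 in CT070 (nearest 145.7), Tnfrsf23 was 1185 in CT070 (nearest 478.7) and Il12rb1 was 114.3 in CT070 (nearest 38.02). Il33 was 3906 in CT071 (nearest 2287) and Il11ra2 was 50.83 in CT074 (nearest 9.114). Among controls, Il1a was 15.22 in CT063 (nearest 12.97) and Il18 was 374.7 in CT067 (nearest 128.6).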

How the results depend on the processing

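The number of members called depended on the setting. At 4 days (2 calls) there were 7 with array weights, 1 with quantile normalization, 0 in the table of 3 and 3 libraries and 0 with the Y-linked level as a covariate, and 1 to 6 when 1 library was left out. For luminal tumors (2 calls) there were 1 without the filter, 0 without the trend, 1 with luminal and basal tumors alone, 4 with luminal domains pooled with luminal tumors, and 0 to 5 when 1 library was left out. For luminal domains (3 calls) there were 0 without the trend, 0 with the domains of the 8-library table, and 0 to 6 when 1 library was left out. Basal-like domains had 0 calls among members in every setting run. The cause of these shifts was not tested. The table of 3 and 3 libraries has fewer libraries and was also normalized on its own. No paired analysis was possible because the columns of the tables carry no replicate numbers.

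Directions reversed for Il12b, Il1a, Il17d and Il7, which were not called. Il12b at 4 days was -0.064 with quantile normalization, and -0.137 to 0.582 when 1 library was left out. Il1a in luminal tumors was -0.08 with array weights and -0.466 to 0.969 when 1 library was left out. Il17d was -1.004 to 0.136 in luminal tumors and -0.041 to 1.327 in basal-like domains, and Il7 was -2.922 to 0.009 in luminal domains.

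Over all genes, calls at 4 days numbered 467, against 269 without the trend, 1054 with array weights, 147 in the smaller table, 26 with the covariate and 84 to 596 when 1 library was left out. Luminal tumors had 338, against 52 without the filter, 142 without the trend, 142 with tumors alone, 513 pooled and 3 to 896. Luminal domains had 377, against 144 without the filter, 107 without the trend, 52 in the 8-library table and 0 to 518. Basal-like domains had 0, against 20 without the trend. Of the calls, those higher were 290 of 467 at 4 days against 270 of 557 with quantile normalization. In luminal tumors they were 194 of 338 against 378 of 513 pooled, 45 of 52 without the filter, 48 of 142 without the trend and 179 of 265 with a filter at 50. In luminal domains they were 254 of 377 against 179 of 313 with upper-quartile scaling and 49 of 52 in the 8-library table.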
